A study of Homo sapiens with 6 samples.

Results

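Cells take up iron, store it and release it through a small set of proteins, and transcripts for 10 of these were followed here in human leukemia lines. The genes were the transferrin receptors TFRC and TFR2, the endosomal iron transporter SLC11A2 and reductase STEAP3, the mitochondrial iron importer SLC25A37, the ferritin subunits FTH1 and FTL, the exporter SLC40A1, and the iron regulatory proteins ACO1 and IREB2. They were chosen by name from the array's annotation. A probe set, which covers part of a gene, was taken where its annotation gave a single symbol among the 10. This gave 188 of 352859 probe sets and 10 of 22320 genes, and all 10 genes were measured.

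RNA came from HEL and SET2, established lines labelled as acute myeloid leukemia, each on 3 arrays. In each line 1 array was labelled control (the empty pLKO backbone), 1 IGF1R shRNA (against the insulin-like growth factor 1 receptor) and 1 miR-125a sponge (a transcript meant to bind that microRNA). All cultures, controls included, had been transduced with lentivirus and kept in puromycin for 96 h. No label says that the arrays came from more than 1 culture per line and construct, so the lines were the only replication of a treatment. Values are the authors' log2 signals, averaged over the probe sets of a gene, with array medians between 5.69 and 5.75. Levels of the iron genes are compared between arrays for 1 gene, not between genes.

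Iron bound to transferrin enters a cell through the transferrin receptor, is reduced and carried out of the endosome, and then goes to mitochondria, into ferritin, or out of the cell through ferroportin, the product of SLC40A1. Red cell precursors need much of it for heme. When iron is scarce, the iron regulatory proteins bind a hairpin called the iron-responsive element. Binding in the TFRC transcript protects that RNA from decay, while binding near the start of the ferritin and ferroportin transcripts blocks their translation.

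The sequences shown belong to the genes that differed between the lines, so that a reader can see the control regions next to the values. Windows before the annotated start were taken from RefSeq (GRCh38.p14), whose table held 7 of the 10 genes, and capitals mark TATAA or GGGCGG on either strand. TFRC lies on the minus strand (chr3:196082091-196082340), FTL on the plus strand (chr19:48965059-48965308) and SLC40A1 on the minus strand (chr2:189580787-189581036). Each window holds 250 bases.
TFRC: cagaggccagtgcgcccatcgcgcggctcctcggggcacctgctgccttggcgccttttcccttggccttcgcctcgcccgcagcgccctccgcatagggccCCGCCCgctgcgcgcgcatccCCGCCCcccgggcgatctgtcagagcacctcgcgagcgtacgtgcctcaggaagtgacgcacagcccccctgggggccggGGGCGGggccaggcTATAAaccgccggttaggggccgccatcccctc
FTL: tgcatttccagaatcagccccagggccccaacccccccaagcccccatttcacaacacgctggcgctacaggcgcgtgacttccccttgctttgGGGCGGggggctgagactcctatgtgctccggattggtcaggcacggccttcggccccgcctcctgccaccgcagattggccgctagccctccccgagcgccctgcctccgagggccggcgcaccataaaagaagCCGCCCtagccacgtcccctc
SLC40A1: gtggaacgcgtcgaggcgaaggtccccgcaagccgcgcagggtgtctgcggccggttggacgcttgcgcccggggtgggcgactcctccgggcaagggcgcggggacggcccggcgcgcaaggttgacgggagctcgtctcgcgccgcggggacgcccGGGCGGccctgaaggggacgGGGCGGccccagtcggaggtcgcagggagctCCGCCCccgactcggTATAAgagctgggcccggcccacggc

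GGGCGG, the core of the GC box that Sp1 binds, occurred 3 times in the TFRC window, 3 times in that of SLC40A1 and 2 times in that of FTL. It is present in 42.6% of all 35116 RefSeq windows of this length. TATAA, the core of the TATA box, occurred 1 time in TFRC and 1 time in SLC40A1, and in 18.9% of all windows. The core letters of GATA factor sites (AGATAA, in 9.17% of windows), STAT sites (TTCNNNGAA, in 6.57%) and NRF2 sites (TGACNNNGC, in 10.9%) were not in these 3 windows on either strand. These matches only describe the letters of the windows.

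The FTL transcript shows the hairpin by which the iron regulatory proteins recognise ferritin RNA. The stretch begins the known element after the start of FTL (chr19:48965337-48965358, plus strand), with the loop letters CAGTGN in capitals, and runs to the end of the window.
FTL element: cttgcttcaaCAGTGTttggac
Its loop starts 39 bases into the transcript. The letters occur on the sense strand in the first 50 bases of 6.48% of all windows. Of the 7 genes in the table, FTL alone had them there. Bases beyond the first 50 were not searched, so an element farther along a transcript would not be seen.

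Levels of a few marker genes were read in both lines, and the shRNA label was checked on its target. The markers were picked from longer lists whose other members have other levels, so they do not check the line labels. The mean log2 level was 8.62 in HEL and 8.62 in SET2 for the myeloid antigen CD33, 9.33 and 9.91 for the progenitor receptor KIT, and 10.26 and 10.04 for the erythroid and megakaryocytic factor GATA1. MPO, a granule enzyme of many myeloid leukemias, stood at 4.33 and 4.51. Signal depends on the probes as well as the RNA and no detection call was made, so these levels do not show by themselves which markers were present. The transcript of IGF1R itself hardly moved under its shRNA (log2 change -0.075 in HEL and 0.011 in SET2, adjusted p = 0.973 by limma), so those arrays are called by their label throughout, and their directions hold between labels.

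The main contrast in this set lay between the lines. SLC40A1, TFRC, FTL and FTH1 were higher in SET2 than in HEL, by 2.54-fold, 1.82-fold, 1.5-fold and 1.39-fold. Those 4 genes have parts in export, uptake and storage, but they do not stand for those processes as a whole. The other 6 genes, among them both iron regulatory proteins and the second transferrin receptor, did not pass the test. The 3 arrays of a line held different constructs and were not repeat cultures of 1 condition. The p-values between the lines therefore do not measure the spread between such cultures. All 6 arrays were fitted together in limma, with treatment and cell line as terms, and p-values were adjusted by Benjamini-Hochberg over 22320 genes. By this rule 4 of the 10 genes differed, all of them lower in HEL, where 24.5% of all genes differed, 13% lower and 11.6% higher in HEL. At an unadjusted p under 0.05 it was 5 of 10, against 34.8% of all genes. The arrays of the lines did not overlap in 4 of 10, against 39.2% of all genes. In RNA of whole cultures, fewer cells of a kind and less RNA per cell cannot be told apart. The median absolute difference between lines was 0.34 over the 10 genes and 0.21 over all genes. These shares over all genes include many dim genes, whereas all 10 genes were at or above the median gene level of 5.55. With genes below that level left out, 4 of the 10 differed, beside 4366 of the 11160 genes kept.

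**Figure D1:**
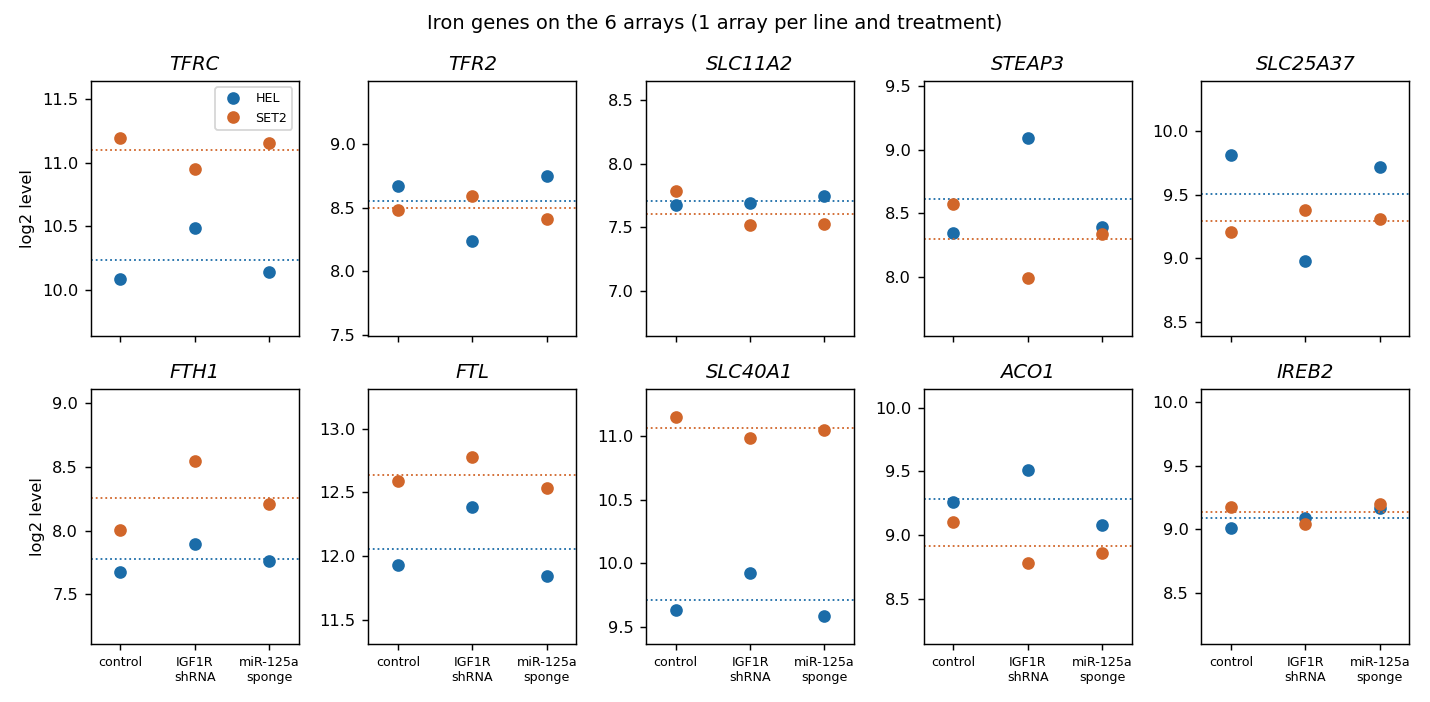
Log2 level of each gene (y axis, own range per panel but the same height of 2 log2 units) on the control, IGF1R shRNA and miR-125a sponge arrays (x axis); each point is 1 array, blue for HEL and orange for SET2, and dotted lines are the means of the 3 arrays of a line. In SLC40A1, TFRC, FTL and FTH1 all SET2 points lie above all HEL points, while in the other 6 panels the lines overlap.

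The exporter gene came first in size. SLC40A1 encodes ferroportin, the only known exporter of iron from mammalian cells. Its log2 level was 9.63 (control), 9.92 (IGF1R shRNA) and 9.59 (sponge) in HEL, and 11.15, 10.99 and 11.05 in SET2. The lowest SET2 array lay above the highest HEL array by far more than either line spread (HEL 9.71 ± 0.18, SET2 11.06 ± 0.08, SD, n = 3 arrays of different treatment). The difference, HEL minus SET2, was -1.35 (SE 0.14, 95% confidence interval -1.68 to -1.02, adjusted p = 0.000781 by limma), and 95.4% of all genes differed by no more than this in size.

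On each of its 19 probe sets every SET2 array was above every HEL array, which holds for 28% of all probe sets counted in either direction. The difference per probe set ran from -2.72 to -0.83 with a median of -1.20. When all 352859 probe sets were fitted, 7 of the 19 passed the adjusted threshold, where 4.37% of all probe sets did. Probe sets of a gene read the same RNA and are not replicates. The brightest probe set alone gave -0.83 (adjusted p = 0.0614), which does not pass.

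Uptake was next. TFRC encodes the receptor that brings in iron-loaded transferrin and is made in large amounts by dividing and erythroid cells. Its log2 level was 10.09 (control), 10.49 (IGF1R shRNA) and 10.14 (sponge) in HEL, against 11.19, 10.95 and 11.16 in SET2. The arrays of the lines did not overlap, and the gap was smallest between the IGF1R shRNA arrays, at -0.46 against -1.11 in the controls and -1.02 in the sponge arrays. Averaged over treatments the difference was -0.86 (SE 0.16, adjusted p = 0.0087 by limma). It did not pass without either control array (-0.74, adjusted p = 0.0571), without either sponge array (-0.78, adjusted p = 0.0621), with the median of the probe sets (-0.92, adjusted p = 0.0587) or with the brightest probe set (-0.51, adjusted p = 0.269). Without both IGF1R shRNA arrays it was -1.06 (adjusted p = 0.00104).

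The 29 TFRC probe sets fell into a brighter and a dimmer part that differed in the IGF1R shRNA arrays. A gap in level separates 18 probe sets at 11.39 or more from 11 probe sets at 10.67 or less, and a limit of 11 was set after these values were seen. The brighter part averaged 11.67, 12.63 and 11.74 in HEL (control, IGF1R shRNA, sponge) and 12.86, 12.65 and 12.79 in SET2. Thus the HEL array labelled IGF1R shRNA stood close to the SET2 arrays, and the other HEL arrays did not. All 18 were higher in that HEL array than in the HEL control, by 0.64 to 1.37, and 17 of 18 were lower in the SET2 array of the same label, by a median of -0.20. The line difference of these 18 had a median of -1.14 in the controls, 0.01 in the IGF1R shRNA arrays and -1.04 in the sponge arrays.

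The dimmer TFRC probe sets gave another picture. Their average was 7.50, 6.98 and 7.51 in HEL and 8.47, 8.17 and 8.48 in SET2. On average the lines thus stayed apart under every label. By probe set, the arrays of the lines did not overlap on 9 of the 11. The line difference in the IGF1R shRNA arrays ran from -2.74 to 0.95. Under the IGF1R shRNA label 8 of the 11 were below control in HEL, with a median change of -0.60, and in SET2 all 11 were lower, with a median of -0.32. With the brighter part in place of all probe sets, TFRC differed between the lines by -0.75 (adjusted p = 0.0572 by limma), and with the dimmer part by -1.04 (adjusted p = 0.00133). Which parts of the gene these probe sets read was not used here.

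**Figure D2:**
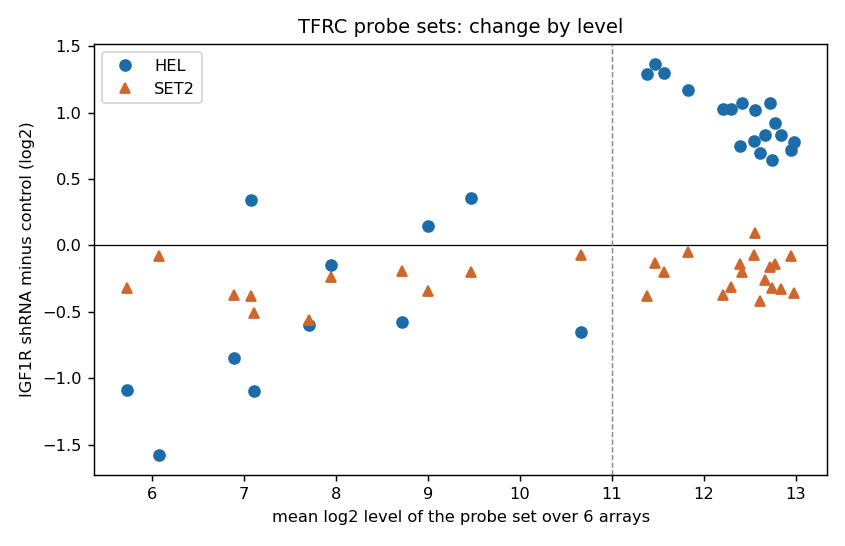
Each TFRC probe set by its mean log2 level over 6 arrays (x axis) and by its log2 change, IGF1R shRNA minus control (y axis), in HEL (blue circles) and SET2 (orange triangles); the dashed line marks a level of 11. To its right all 18 HEL points lie above 0, at 0.64 to 1.37, and to its left 8 of 11 lie below 0, while SET2 points stay between -0.56 and 0.09 throughout.

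The ferritin genes differed the same way. FTL encodes the light chain of ferritin, the hollow shell in which iron is kept. It stood at 11.93 (control), 12.38 (IGF1R shRNA) and 11.84 (sponge) in HEL, and at 12.59, 12.78 and 12.54 in SET2. All SET2 arrays were above all HEL arrays, and the highest HEL array was the one labelled IGF1R shRNA (HEL 12.05 ± 0.29, SET2 12.64 ± 0.13, SD, n = 3 arrays). The difference was -0.58 (SE 0.13, adjusted p = 0.0159 by limma), and it ran from -0.91 to -0.35 over the 6 probe sets, of which 4 kept the lines apart. Without either control array it was -0.54 (adjusted p = 0.0979), without either sponge array -0.53 (adjusted p = 0.13), and with the brightest probe set -0.42 (adjusted p = 0.188).

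FTH1 encodes the heavy chain, which carries the ferroxidase activity of the shell. Its log2 level was 7.68, 7.89 and 7.76 in HEL (control, IGF1R shRNA, sponge) and 8.01, 8.54 and 8.21 in SET2. The arrays of the lines did not overlap, but the lowest SET2 array, the control, lay closer to the highest HEL array than the SD of the SET2 arrays (0.27). The difference of -0.47 (SE 0.13, adjusted p = 0.0342 by limma) was the smallest of the 4, and it did not pass when any single array was left out (-0.55 to -0.39, adjusted p = 0.0594 to 0.166), with the median (-0.61, adjusted p = 0.0765) or the brightest of the probe sets (-0.50, adjusted p = 0.108), without dim probe sets (-0.46, adjusted p = 0.0508) or without treatment as a term (-0.47, adjusted p = 0.0502). Ferritin genes have many near-identical pseudogene copies, so signal of FTH1 and FTL may include RNA of copies, and both values are uncertain for that reason. On the array FTH1P3 was listed separately with 1 probe set and FTLP10 with 3.

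The second transferrin receptor, TFR2, which senses iron-loaded transferrin and is made mainly in liver and erythroid cells, did not differ between the lines beyond their spread. It stood at 8.67, 8.24 and 8.75 in HEL and at 8.48, 8.59 and 8.41 in SET2, in the same order of labels. HEL was higher in the control and sponge arrays and lower in the IGF1R shRNA arrays, and the average difference was 0.06 (95% confidence interval -0.32 to 0.44, adjusted p = 0.849).

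SLC11A2 (DMT1), which moves ferrous iron across the endosomal membrane, stood at 7.67, 7.69 and 7.75 in HEL and at 7.78, 7.52 and 7.52 in SET2. All 6 values lay within 0.27 of each other. The difference was 0.10 (95% confidence interval -0.21 to 0.40, adjusted p = 0.667).

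STEAP3, the reductase that turns ferric into ferrous iron in the endosome, was level in 4 of the 6 arrays. It stood at 8.35, 9.09 and 8.39 in HEL and at 8.57, 7.99 and 8.34 in SET2. The array labelled IGF1R shRNA was the highest in HEL and the lowest in SET2, and between these arrays the lines differed by 1.10, against -0.22 in the controls and 0.05 in the sponge arrays. The average difference was 0.31 (95% confidence interval -0.28 to 0.90, adjusted p = 0.446).

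SLC25A37, mitoferrin 1, which feeds iron into the mitochondria of red cell precursors for heme, stood at 9.81, 8.98 and 9.72 in HEL and at 9.21, 9.38 and 9.31 in SET2. HEL was higher in the control and sponge arrays, by 0.60 and 0.41, and lower in the arrays labelled IGF1R shRNA, by a difference of -0.40. Over all arrays it was 0.21 (95% confidence interval -0.28 to 0.69, adjusted p = 0.549), and without either or both of the IGF1R shRNA arrays it was 0.51 and passed (adjusted p = 0.0248).

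The iron regulatory proteins did not pass the test. ACO1, the iron regulatory protein that doubles as cytosolic aconitase when it holds an iron-sulfur cluster, stood at 9.26, 9.51 and 9.08 in HEL and at 9.10, 8.78 and 8.86 in SET2. The HEL array of each label was above the SET2 array of that label, but across labels the lines overlapped, and the difference of 0.37 (95% confidence interval 0.01 to 0.73) had an adjusted p of 0.133. IREB2, the other iron regulatory protein, which is degraded when iron is plentiful, stood at 9.01, 9.09 and 9.17 in HEL and at 9.18, 9.04 and 9.19 in SET2. Its difference was -0.05 (95% confidence interval -0.33 to 0.23, adjusted p = 0.818), and its range over the 6 arrays, 0.19, was the narrowest of the 10.

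**Figure D3:**
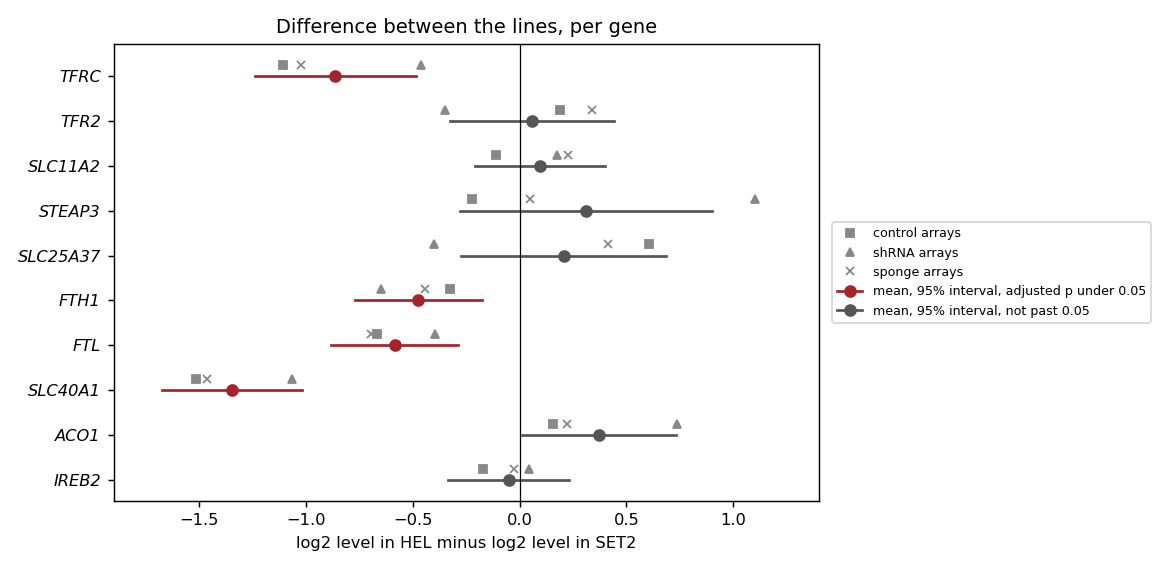
HEL minus SET2 difference in log2 level for each gene (x axis); circles are means over the 3 treatments with their 95% confidence interval from limma, red where the adjusted p was under 0.05, and grey marks are the differences between control, IGF1R shRNA and sponge arrays. The intervals of SLC40A1, TFRC, FTL and FTH1 lie below 0, and for STEAP3 and SLC25A37 the IGF1R shRNA mark stands far from the other marks.

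Among all 188 probe sets, 9 passed the adjusted threshold between the lines, 7 of SLC40A1 and 2 of TFRC, all higher in SET2. That is 4.79% of them, near the 4.37% of all probe sets. The arrays of the lines did not overlap on 61 of the 188, or 32.4%, against 28% of all probe sets. Of the 188, 174 had a mean level at or above the median of all probe sets, 5.66. Those 174 held all 9 calls, where 5.9% of all such probe sets passed, and the dimmer 14 held 0, where 2.84% did. The range of the difference over probe sets was widest in TFRC, from -1.98 to 0.38, followed by IREB2, from -1.33 to 0.62.

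**Figure D4:**
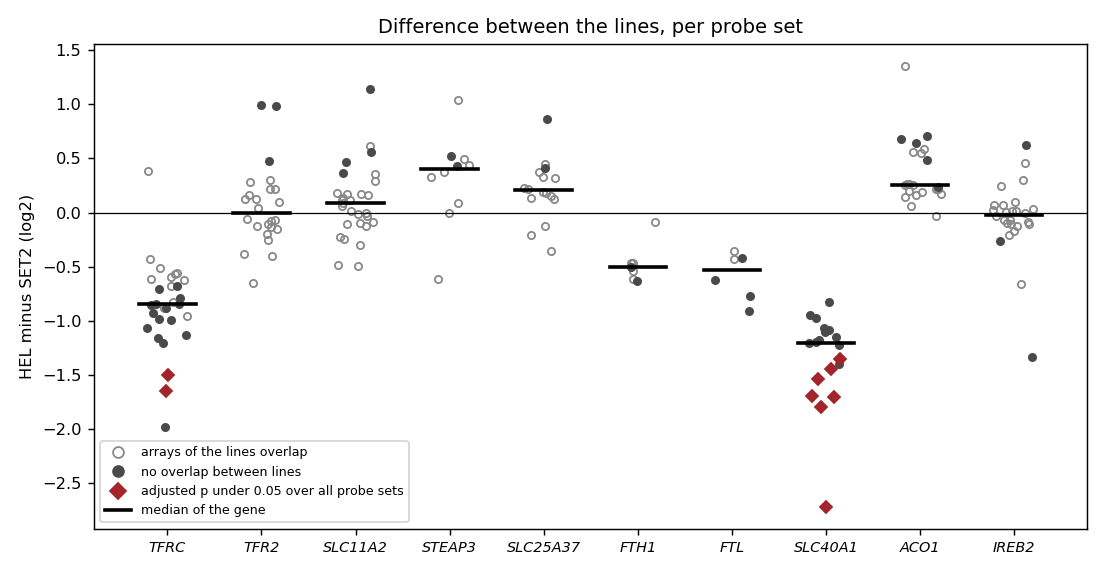
HEL minus SET2 difference of every probe set (y axis, log2) by gene (x axis); open circles are probe sets on which the arrays of the lines overlap, filled circles those on which they do not, red diamonds those past the adjusted threshold over all probe sets, and black bars the medians. All 19 SLC40A1 probe sets lie at -0.83 or lower, and 7 of them and 2 of TFRC are red.

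Markers of blood cell types also differed between the lines, and their part in the iron gene differences was not tested. In this contrast 24.5% of all genes differed. Of 12 listed erythroid markers 9 were measured, of which 6 were higher in SET2 (HBB, HBG1, HBZ, KLF1, EPOR and SLC4A1) and EPB42 was higher in HEL. The mean log2 level of the 9 ranged from 7.20 to 7.74 in HEL and from 8.14 to 8.28 in SET2. Of 11 measured megakaryocyte and platelet markers, 4 were higher in HEL (ITGB3, GP9, GP6 and GP1BA) and 0 in SET2. Their mean level ranged from 7.97 to 8.10 in HEL and from 7.11 to 7.32 in SET2. Of 12 myeloid markers, ITGAM (HEL minus SET2 -2.575) and LYZ (-1.47) were higher in SET2 and SPI1 (0.87) in HEL. Of 9 measured lymphoid markers CD2 (2.12) alone passed, higher in HEL. Differences were not confined to blood cell markers. Of 9 measured fibroblast, epithelial and endothelial markers, 4 were higher in HEL and 2 in SET2. The mean level of 8 stem and progenitor markers ranged from 5.68 to 6.08 in HEL and from 7.23 to 7.28 in SET2. Of the 8, only CD34 (HEL minus SET2 -4.19) and CD38 (-5.57) passed, both higher in SET2. The gap in mean level rests largely on these, as the median difference of the list was -0.27. The lowest value of any probe set was 1.61, and without a detection call no level shows whether a marker was present.

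The wider iron pathway was read from 7 lists of 87 genes, of which 83 were measured. Between the lines 21 of the 83 were higher in SET2 and 8 in HEL, where 13% of all genes were higher in SET2 and 11.6% in HEL. The counts per list are to be read against the 24.5% of all genes that differed in either direction. That share includes many dim genes. Measured genes at or above the median gene level made up from 2 of 5 (export) to 7 of 8 (iron sensing) of a list. Of the 11160 genes at or above that level, fitted alone, 4366 differed. In the list of transferrin and cell-surface uptake, 5 of 15 differed. Transferrin itself, TF, was higher in HEL, by 2.71 (SE 0.19, adjusted p = 0.000158, 7.49 against 4.78), as was the iron and zinc transporter SLC39A14, by 1.02 on the log2 scale. The lysosomal channel MCOLN1 (-1.05), the lipocalin receptor SLC22A17 (-0.74) and the zinc and iron transporter SLC39A8 (-0.61) were higher in SET2. Among 7 measured genes of ferritin handling and iron chaperones, GLRX3 alone differed (-0.70), and NCOA4, which delivers ferritin to the lysosome, stood at -0.09. Of 5 export genes the oxidase HEPH differed, by 0.45.

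Of 9 systemic regulators 5 differed. The receptor ACVR1 (0.96) was higher in HEL, and neogenin, NEO1 (-0.80), which binds hemojuvelin, ERFE (-0.68, annotated as FAM132B), BMP6 (-0.55), the ligand that induces hepcidin in liver, and the receptor BMPR2 (-0.41) were higher in SET2. In the list of iron sensing and of transcripts known to carry an iron-responsive element, 4 of 8 differed, all higher in SET2. They were the kinase gene CDC42BPA (-1.61), HIF1A (-0.71), EPAS1 (-0.64) and CDC14A (-0.62). FBXL5, the iron-sensing subunit that marks IREB2 for degradation, stood at 0.19 (adjusted p = 0.334).

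Mitochondrial import and iron-sulfur cluster genes went both ways, with 4 of 26 higher in each line. FDX2 (annotated as FDX1L, 0.64), ISCA1 (0.62), HSPA9 (0.58) and ABCB8 (0.40) were higher in HEL. NUBP1 (-0.74), ISCA2 (-0.74), the second mitoferrin SLC25A28 (-0.74) and GLRX5 (-0.62) were higher in SET2. In heme uptake, breakdown and export, 5 of 13 differed, all higher in SET2. These were the heme exporter ABCG2 (-1.85), the heme-binding protein HEBP1 (-1.73), the biliverdin reductases BLVRB (-1.34) and BLVRA (-0.63), and LRP1 (-0.78), the receptor for heme-hemopexin. The median difference was -0.41 for the iron-sensing list, 0.23 for export and between -0.09 and -0.02 for the other 5 lists, beside 0.0076 over all genes.

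The arrays labelled IGF1R shRNA were then set against the controls. In limma 0 of the 10 genes passed, as did 0 of 22320 genes (0%), and 1 of the 10, FTH1, had an unadjusted p under 0.05, where 7.42% of all genes did. Both ferritin genes were higher in both lines, and the other 8 genes went in opposite directions in HEL and SET2. Over all genes 22.5% were higher in both lines and 50.5% did not share a sign. The adjusted p of the 10 genes ran from 0.666 to 0.978.

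The ferritin values under IGF1R shRNA shared their sign between the lines but not their size. FTH1 changed by 0.22 in HEL and 0.54 in SET2, an average of 0.38 (SE 0.15, adjusted p = 0.666). FTL changed by 0.46 and 0.19, an average of 0.32 (SE 0.15, adjusted p = 0.693). All 6 FTL probe sets were higher in both lines, as were 5 of the 7 of FTH1. HMOX1, which breaks heme down and releases its iron, stood at 1.03 in HEL and 0.52 in SET2 (average 0.78, adjusted p = 0.623). It had the largest value of one sign in both lines in its list.

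Of the genes with opposite signs, STEAP3, SLC25A37, TFR2 and TFRC had the largest changes in HEL. STEAP3 was 0.74 above the HEL control, with 1 of its 10 probe sets lower, and TFRC 0.40 above. SLC25A37 was -0.83 from control, with all 16 probe sets lower, and TFR2 -0.43, with 21 of 24 lower. In SET2 the changes were -0.58 for STEAP3, with 9 of 10 probe sets lower, -0.24 for TFRC, 0.17 for SLC25A37 and 0.11 for TFR2. With 1 array per line and label these differences have no replicate check.

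Of the other members, SLC40A1 stood at 0.29 in HEL and -0.16 in SET2, ACO1 at 0.25 and -0.33, SLC11A2 at 0.02 and -0.27, and IREB2 at 0.08 and -0.13. The median absolute change of the 10 genes was 0.34 in HEL and 0.22 in SET2, against 0.21 and 0.18 over all genes. Of the 9 measured erythroid markers 0 passed for IGF1R shRNA, and their changes in HEL ran from -1.76 (HBZ) to -0.018 (SLC4A1). The mean level of the 9 was 7.74 (control), 7.20 (IGF1R shRNA) and 7.65 (sponge) in HEL, against 8.28, 8.17 and 8.14 in SET2. The level of ALAS2, the erythroid enzyme that starts heme synthesis, was -1.13 from control in HEL and 0.31 in SET2. The part of these markers in the values of SLC25A37 and TFR2 was not tested.

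**Figure D5:**
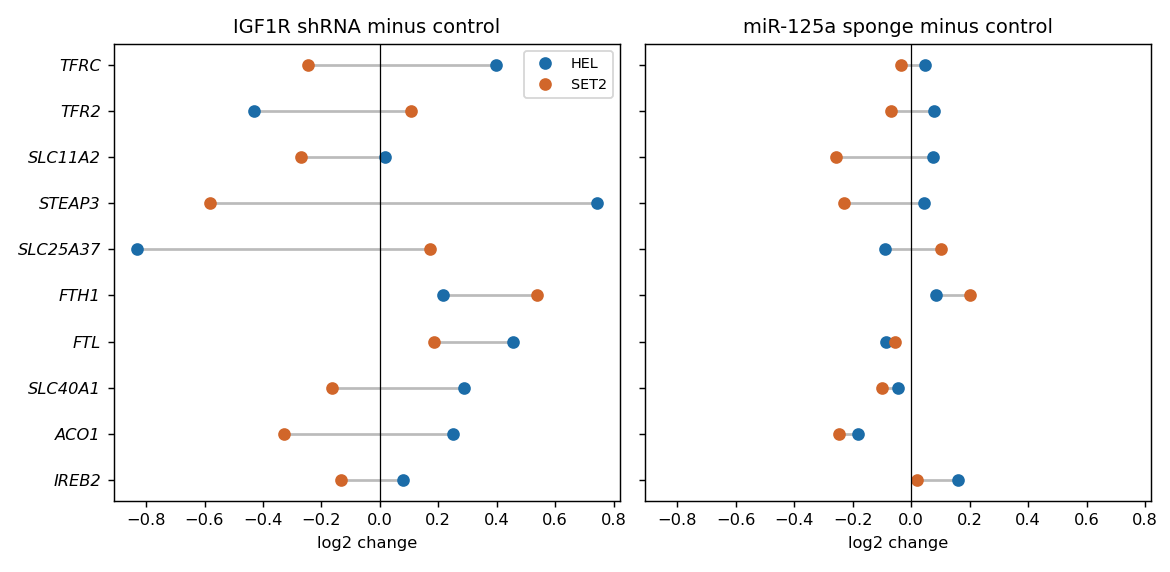
Log2 change from control in HEL (blue) and SET2 (orange) for each gene, for the arrays labelled IGF1R shRNA (left) and for the miR-125a sponge arrays (right); each point is 1 array minus the control array of its line. On the left FTH1 and FTL have both points above 0, and STEAP3 and SLC25A37 have points farthest apart; on the right all points lie between -0.26 and 0.20.

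In the wider iron lists 0 of 83 genes passed for IGF1R shRNA. Those with the largest values of one sign in both lines, 1 upward and 1 downward per list, were MCOLN1 (0.36) and TF (-0.76) in uptake, FTMT (0.14) and PCBP2 (-0.13) in ferritin handling, HAMP (0.13) and FLVCR1 (-0.10) in export, BMPR2 (0.33) and TMPRSS6 (-0.19) among systemic regulators, EPAS1 (0.37) and SKP1 (-0.38) in iron sensing, SLC25A28 (0.17) and ABCB10 (-0.88) in mitochondria, and HMOX1 and ABCG2 (-0.21) in heme handling. ABCB10, which stabilises mitoferrin 1 in mouse cells, stood at -1.69 in HEL and -0.07 in SET2. TF stood at -1.18 and -0.35. Some of the named genes lay below the median gene level of 5.55. Among these were FTMT (3.23 in HEL and 3.40 in SET2) and TMPRSS6 (4.73 and 4.69). In the mitochondrial list 11 of 26 genes were lower in both lines and 2 higher, where 27% of all genes were lower in both. The adjusted p of all 83 genes was 0.623 or higher.

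The miR-125a sponge arrays were set against the controls; whether the sponge bound the microRNA was not tested. Changes were small in all 10 genes, from -0.18 to 0.16 in HEL and from -0.26 to 0.20 in SET2. In limma 0 of the 10 passed, as did 0 of all genes (0%), and 0 of the 10 had an unadjusted p under 0.05, where 1.85% of all genes did. All adjusted p of the 10 genes were 1. ACO1 was lower in both lines (-0.18 in HEL, -0.25 in SET2, average -0.22, SE 0.19), as were SLC40A1 (-0.05 and -0.10) and FTL (-0.09 and -0.06), 3 of 10 where 29.7% of all genes were lower in both. FTH1 (0.09 and 0.20, average 0.14, SE 0.15) and IREB2 (0.16 and 0.02) were higher in both, 2 of 10 where 21.1% of all genes were, and the other 5 genes had opposite signs. The 95% confidence intervals were not narrow enough to show that the sponge left these genes as they were.

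In the iron lists 0 of 83 genes passed for the sponge. The largest values of one sign in both lines were SNX3 (0.03) and TF (-0.09) in uptake, PCBP3 (-0.33) in ferritin handling, HEPH (0.14) and CP (-0.09) in export, NEO1 (0.18) and HFE (-0.18) among systemic regulators, CDC42BPA (0.16) and CUL1 (-0.20) in iron sensing, LYRM4 (0.24) and CIAPIN1 (-0.28) in mitochondria, and SLC48A1 (0.21) and BLVRA (-0.26) in heme handling. Some of these genes lay below the median gene level of 5.55, among them CP (3.52 in HEL and 3.52 in SET2), HFE (4.55 and 4.38) and PCBP3 (4.70 and 4.87). The IGF1R shRNA and sponge comparisons share the control arrays.

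The genes nearest in pattern were sought for the 3 members that varied most over the arrays, SLC40A1 (range 1.56), TFRC (1.11) and STEAP3 (1.10). Likeness was the root mean square distance between log2 profiles over the 6 arrays after each was centred on its mean, among 16048 genes with at least 5 probe sets. Nearest to SLC40A1 were GRN (0.064), IDE (0.067) and HSD3B7 (0.070). Nearest to TFRC were GBP4 (0.030), AKAP11 (0.046) and ZNF134 (0.054). The TFRC profile here averages its brighter and dimmer probe sets, which moved in opposite directions in the HEL array labelled IGF1R shRNA. Likeness was only ranked and was not tested. Nearest to STEAP3 were DTL (0.070), CENPO (0.072) and CPOX (0.073), the last an enzyme of heme synthesis, which stood at 7.80, 8.43 and 7.88 in HEL and 7.93, 7.53 and 7.72 in SET2.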

How the data were processed

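Each of 6 total RNA samples was read on its own GeneChip Human Gene 2.0 ST array. The authors deposited 1 value per probe set and array. Per the submitters' processing notes the software was Affymetrix Expression Console. The deposited values were taken as log2 from their range of 1.61 to 13.99. How probes were summarised, corrected and normalised, and on which build, is not given in the sources used here. Without scanner files no detection call was made. Precision is limited by the number of arrays. Of 352859 probe sets, 259224 had a single symbol and were averaged into 22320 genes; 13116 had several symbols and 80519 had none. Symbols are the annotation's own, and listed genes were also matched through RefSeq synonyms.

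Genes and, separately, all probe sets went through lmFit and eBayes of limma 3.58.1 (R 4.3.3), the model holding cell line and treatment. This left 2 residual degrees of freedom plus 4.78 prior ones for genes and 2.83 for probe sets. Two-sided p-values were adjusted over all features (Benjamini-Hochberg), with a threshold of 0.05. Replicate numbers stand for the lines, per the labels (replicate 1 HEL, replicate 2 SET2), and arrays of a line deviated together (correlations of 0.75 to 0.88 over genes). The fit was tested on simulated data. The members, lists and rules were chosen with earlier results of these data known. Named were all members, list genes past the threshold (at most 8 per list) or otherwise the largest of one sign, the 3 nearest profiles, and IGF1R. Alternatives were other gene summaries, filters, normalisation, a trended prior, leaving out terms, and leaving out arrays. Figures were drawn with matplotlib 3.10.9.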

Additional observations from a re-analysis of the deposited data

Results flagged for a closer look

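For 6 of the 10 genes the line arrays labelled IGF1R shRNA moved in opposite directions from their controls, by at least 0.1 on the log2 scale in each line. The differences between lines rest on 1 array per line and label and were not tested. The change in HEL minus the change in SET2 was 1.33 for STEAP3, 0.64 for TFRC, 0.58 for ACO1 and 0.45 for SLC40A1, where HEL stood above its control and SET2 below. It was -1.003 for SLC25A37 and -0.54 for TFR2, where HEL stood below. Of all genes 26.3% met the same condition. For the sponge 0 of the 10 genes met it, against 18.5% of all genes.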

How the results depend on the processing

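The counts of 0 members and 0 genes for the sponge were the same under all alternatives, as was the count of 0 members for IGF1R shRNA; the count of genes for IGF1R shRNA ran from 0 to 729 when single arrays were left out, the latter without IGF1R shRNA replicate 2. Between the lines, the 4 members called became 2 with the median of the probe sets, 0 with the brightest probe set, and 1 to 4 when single arrays were left out, with 1 (SLC40A1) without any 1 control or sponge array. The 5475 genes called became 2613 with the brightest probe set and 2871 to 6330 when arrays were left out. Leaving out 1 array of a label lets its partner say nothing of the lines, so both give the same line difference. The 9 member probe sets called became 25 with dim probe sets left out, 29 with a trended prior, 19 with no replicate block (for this contrast, no treatment term), 0 when any 1 array was left out and 0 without both IGF1R shRNA arrays. Without those 2 arrays, an alternative added after the data were seen, 4 members were again called, with SLC25A37 in place of FTH1 (-0.39, adjusted p = 0.0594). Without the replicate block the count of members called between the lines was 3, with FTH1 lost, and it stayed at 0 for both treatments. Quantile normalization changed no member's call. For the member probe sets called under the alternatives, the share of all probe sets called was not counted. Those counts therefore do not single out the iron genes.

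Some averages that had not passed the test changed sign. With the brightest probe set SLC11A2 stood at 0.16 (IGF1R shRNA), 0.10 (sponge) and -0.11 (lines), ACO1 at 0.15 and IREB2 at 0.045 (IGF1R shRNA), TFRC at -0.08 (sponge) and IREB2 at 0.013 (lines). With the median, ACO1 stood at 0.03 (IGF1R shRNA) and 0.043 (sponge), and IREB2 at -0.10 (sponge) and 0.062 (lines). TFRC from its dimmer probe sets stood at -0.41 for IGF1R shRNA, and STEAP3 at -0.086 between the lines without both IGF1R shRNA arrays. When single arrays were left out, IGF1R shRNA values ran from -0.22 to 0.38 (TFRC), -0.47 to 0.14 (TFR2), -0.28 to 0.029 (SLC11A2), -0.51 to 0.67 (STEAP3), -0.78 to 0.12 (SLC25A37), -0.15 to 0.28 (SLC40A1), -0.31 to 0.24 (ACO1) and -0.11 to 0.063 (IREB2). Sponge values ran from -0.18 to 0.19 (TFRC), -0.20 to 0.21 (TFR2), -0.25 to 0.063 (SLC11A2), -0.49 to 0.31 (STEAP3), -0.29 to 0.31 (SLC25A37), -0.15 to 0.011 (FTL) and -0.20 to 0.053 (SLC40A1). Line differences ran from -0.081 to 0.26 (TFR2), -0.086 to 0.58 (STEAP3) and -0.098 to 0.0075 (IREB2). Without 1 IGF1R shRNA array that contrast rests on the array of that label in the other line. STEAP3 thus stood at 0.67 without the SET2 array and at -0.51 without the HEL array. Its changes from control were 0.74 in HEL and -0.58 in SET2. Causes of the sign changes were not tested.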
